A study of Homo sapiens with 15 samples.

Results

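Antisense long noncoding RNAs were followed through RNA-seq of HSSYII cells, a synovial sarcoma line that carries the SS18-SSX1 fusion. The set holds every gene symbol that ends in -AS and a digit and reached 20 raw counts in at least 3 of the 15 libraries, and each RNA was read beside the sense gene in its name. Of 851 such symbols among 25681 symbols in the count tables, 338 met this rule, 332 of them with a sense gene in the tables. The 5 groups held 3 libraries each. Cells were treated for 6 hr with 100 nM dBRD9A, a small molecule that degrades the BAF subunit BRD9, or with its vehicle DMSO. Cells were also infected with a lentiviral hairpin, shSS18-SSX1-1 or shSS18-SSX1-2 against the fusion, or shRenilla, a control hairpin against a luciferase, and taken 96 hr later. The hairpin vector carried GFP and the infected cells were not selected with a drug. All 15 libraries come from 1 cell line, and nothing in the sources used here says that the 3 libraries of a group were separate cultures, so p-values measure only the spread between libraries, which may be technical.

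An antisense long noncoding RNA is transcribed from the strand opposite a named gene. Some start beside the promoter of that gene and run away from it, so that both RNAs share one bidirectional promoter, and these are now often named divergent transcripts. Others lie across the gene and share exonic sequence with it. A few of them, such as OIP5-AS1 in human cells, are known to act away from the gene after which they are named, while most are known only by position.

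Of the 338 antisense RNAs, 148 (43.8%) started within 2 kb of the start of their sense gene and 167 (49.4%) overlapped it with starts further apart, in GENCODE models on GRCh37, the build of the deposited tables. FOXD2-AS1 met neither description, and 22 could not be placed against a sense gene. A current name ending in -DT, for divergent transcript, was carried by 32. The strand setting of the counting is not stated, so reads from bases that both genes share cannot be assigned to either gene. Sharing was counted between exons only, so an antisense exon inside a sense intron counts as unshared. Reads from unspliced sense RNA in such places were not examined. Those bases made up a median of 5.4% of the antisense exonic sequence over the 316 placed pairs. In 76 pairs no exonic base was shared, and in 74 pairs over 20% were. FGD5-AS1 stood at 194 to 204 CPM in dBRD9A cells and 214 to 222 CPM in DMSO cells. Its sense gene FGD5, an exchange factor for CDC42, was listed at 0 in all 6 of those libraries.

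The starts of 5 antisense RNAs that recur in the results and lie beside their sense promoter are shown to make this arrangement visible. Each line gives 250 bases before and 50 after the antisense start, 5′ to 3′ on the antisense strand, from RefSeq on GRCh38.p14, and capitals mark the bases that also fall in the same window of the sense gene, which is read in the other direction. The windows are chr19:33302571-33302870 (plus strand) for CEBPA-AS1, chr22:45163732-45164031 (minus strand) for NUP50-AS1, chr6:2245503-2245802 (plus strand) for GMDS-AS1, chr9:137086768-137087067 (minus strand) for MAN1B1-AS1 and chr15:74461015-74461314 (plus strand) for UBL7-AS1.
CEBPA-AS1: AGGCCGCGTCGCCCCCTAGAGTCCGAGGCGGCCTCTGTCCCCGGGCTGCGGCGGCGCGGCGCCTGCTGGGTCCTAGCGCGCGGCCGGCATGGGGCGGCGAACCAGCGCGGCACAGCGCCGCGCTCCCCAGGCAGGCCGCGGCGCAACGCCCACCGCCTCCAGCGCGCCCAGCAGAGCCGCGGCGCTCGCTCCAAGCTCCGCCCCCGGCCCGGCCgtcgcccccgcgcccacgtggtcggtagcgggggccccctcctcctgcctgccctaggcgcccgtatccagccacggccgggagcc
NUP50-AS1: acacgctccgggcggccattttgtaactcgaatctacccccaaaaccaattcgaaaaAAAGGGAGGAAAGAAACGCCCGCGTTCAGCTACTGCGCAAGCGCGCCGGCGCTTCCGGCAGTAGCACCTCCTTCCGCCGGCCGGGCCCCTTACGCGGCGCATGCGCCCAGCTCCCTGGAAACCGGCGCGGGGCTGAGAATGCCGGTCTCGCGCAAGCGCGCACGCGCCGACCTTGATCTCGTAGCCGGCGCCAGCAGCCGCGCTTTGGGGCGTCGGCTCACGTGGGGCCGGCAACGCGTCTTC
GMDS-AS1: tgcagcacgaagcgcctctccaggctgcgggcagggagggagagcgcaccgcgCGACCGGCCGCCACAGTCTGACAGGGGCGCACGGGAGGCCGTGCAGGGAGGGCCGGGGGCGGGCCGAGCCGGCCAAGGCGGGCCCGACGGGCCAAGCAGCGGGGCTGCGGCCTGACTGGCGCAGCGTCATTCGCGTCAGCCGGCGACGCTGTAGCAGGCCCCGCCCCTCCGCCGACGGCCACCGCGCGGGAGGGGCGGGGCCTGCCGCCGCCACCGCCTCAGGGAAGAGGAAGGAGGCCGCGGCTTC
MAN1B1-AS1: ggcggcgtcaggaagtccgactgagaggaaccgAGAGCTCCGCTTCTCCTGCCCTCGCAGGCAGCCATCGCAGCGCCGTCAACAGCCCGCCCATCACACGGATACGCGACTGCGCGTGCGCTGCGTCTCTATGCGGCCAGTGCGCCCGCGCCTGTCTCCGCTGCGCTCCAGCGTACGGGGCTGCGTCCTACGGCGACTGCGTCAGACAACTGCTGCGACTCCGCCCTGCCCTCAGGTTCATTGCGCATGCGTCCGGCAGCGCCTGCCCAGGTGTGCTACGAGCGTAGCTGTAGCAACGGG
UBL7-AS1: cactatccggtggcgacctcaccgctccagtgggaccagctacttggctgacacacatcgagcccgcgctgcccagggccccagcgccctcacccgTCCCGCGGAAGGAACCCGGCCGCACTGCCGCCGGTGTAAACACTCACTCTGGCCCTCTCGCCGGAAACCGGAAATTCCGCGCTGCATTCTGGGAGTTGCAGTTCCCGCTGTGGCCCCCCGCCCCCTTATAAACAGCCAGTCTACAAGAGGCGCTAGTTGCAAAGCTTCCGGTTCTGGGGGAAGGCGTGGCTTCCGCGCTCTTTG

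All 5 are now named as divergent transcripts. The 2 starts lay 287 bases apart at CEBPA, 144 at NUP50, 148 at GMDS, 168 at MAN1B1 and 105 at UBL7, so that 204 to 267 of the 300 bases were common to both windows. CG dinucleotides numbered 47 in the CEBPA-AS1 window, 43 in NUP50-AS1, 41 in GMDS-AS1, 38 in MAN1B1-AS1 and 26 in UBL7-AS1, against a median of 14 over 35116 RefSeq windows of the same length. The letters GGGCGG, searched on both strands, occurred in all 5 windows and in 45.0% of all windows. CCAAT was found only in the NUP50-AS1 window (34.6% of all windows), TATAAA only in that of UBL7-AS1 (11.5%), and CCGGAAG in those of NUP50-AS1 and UBL7-AS1 (10.3%). None of the 4 motifs contains another. Of the 338 antisense RNAs, 249 had such a window under their name in the table.

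Total counts were 22584741 to 24710719 in the dBRD9A libraries, 20761839 to 23230008 in DMSO, 18580419 to 24669112 in shSS18-SSX1-1, 19643568 to 25792202 in shSS18-SSX1-2 and 20473132 to 27031647 in shRenilla, of which the 338 antisense RNAs took 0.4 to 0.485%. Replicate 1 of shRenilla stood apart from the other 2 shRenilla libraries, with a chi-square per degree of freedom of 36.5 and 27.0 against them where no other pair within a group exceeded 9.85, and calls named here that change without it are given without it. SSX1, whose sequence is part of the fusion, stood at 20.1 ± 1.22 CPM in shSS18-SSX1-1 libraries and 28.7 ± 0.737 CPM in those of shSS18-SSX1-2, against 63.6 ± 11.8 CPM with shRenilla (SD, n = 3 each). BRD9 mRNA stood at 93.2 ± 3.49 CPM with dBRD9A and 88.5 ± 2.96 CPM with DMSO, which checks nothing, since the degrader acts on the protein. Markers of synovial sarcoma summed to 1565 to 1623 CPM in dBRD9A cells and 1609 to 1681 CPM in DMSO cells, with 1 of 8 under 1 CPM throughout. In the hairpin libraries they summed to 786 to 862 CPM, against 1051 to 1122 CPM with shRenilla. Of the 7 tested there, 4 were lower and 0 higher. The list includes SSX1, given above, and SS18, the other gene of the fusion that the hairpins target. SS18 had means of 111 and 124 CPM with shSS18-SSX1-1 and shSS18-SSX1-2, against 171 CPM with shRenilla. A list of 8 smooth muscle and fibroblast markers summed to 1169 to 1475 CPM in the 6 hairpin libraries, against 41.2 to 48.5 CPM with shRenilla. Of its 6 tested genes 5 were higher, while LUM and DCN stayed under 1 CPM. That list summed to 43.6 to 46.6 CPM in dBRD9A cells and 37.5 to 40.9 CPM in DMSO cells, with 2 of 5 tested genes higher. A list of 5 epithelial markers summed to 65.4 to 159 CPM with the hairpins, against 0.0484 to 0.491 CPM with shRenilla, and 5 skeletal muscle markers to 15.6 to 22.1 CPM, against 2.85 to 3.47 CPM. Of the skeletal muscle list all 3 tested genes were higher with the hairpins, while MYOD1, MYOG and CKM stayed under 1 CPM. All 3 tested genes of the epithelial list were higher too, while EPCAM and KRT19 stayed under 1 CPM. In bulk RNA, fewer cells of a type and less RNA per cell cannot be told apart, and the part of such markers in the antisense results was not tested.

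The RNAs were chosen by their raw counts in all groups, so each comparison was read only for antisense RNAs that reached the 20 counts in 3 libraries of the other experiment. That held for 320 of 338 in the comparison of dBRD9A with DMSO and for 308 of 338 in that of the hairpins with shRenilla. Below, CPM are counts scaled to the library total with TMM factors from all 15 libraries, fold changes are log2 values with their SE from edgeR, and a call is an edgeR adjusted p (Benjamini-Hochberg, over all genes) under 0.05.

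After degradation of BRD9 for 6 hr few antisense RNAs passed 1.5-fold, as was also so over all genes. MAN1B1-AS1 and JHDM1D-AS1 rose by 1.13 and 1.02 on the log2 scale, and TMEM161B-AS1 fell by 0.60. Of 312 antisense RNAs tested, 29 were higher and 34 lower in dBRD9A cells, 20.2% in all. Over all 13652 genes tested, 35.9% were called, 17.7% higher and 18.2% lower. A share called depends on reads per gene, and these shares were not compared at equal reads. Past 1.5-fold the counts were 6 higher and 5 lower of 312, beside 305 (2.23%) higher and 81 (0.593%) lower of all 13652 genes. The median log2 fold change was 0.02 over these RNAs and 0.01 over all genes. DESeq2 called 32 of them, fewer than the 63 of edgeR.

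**Figure D1:**
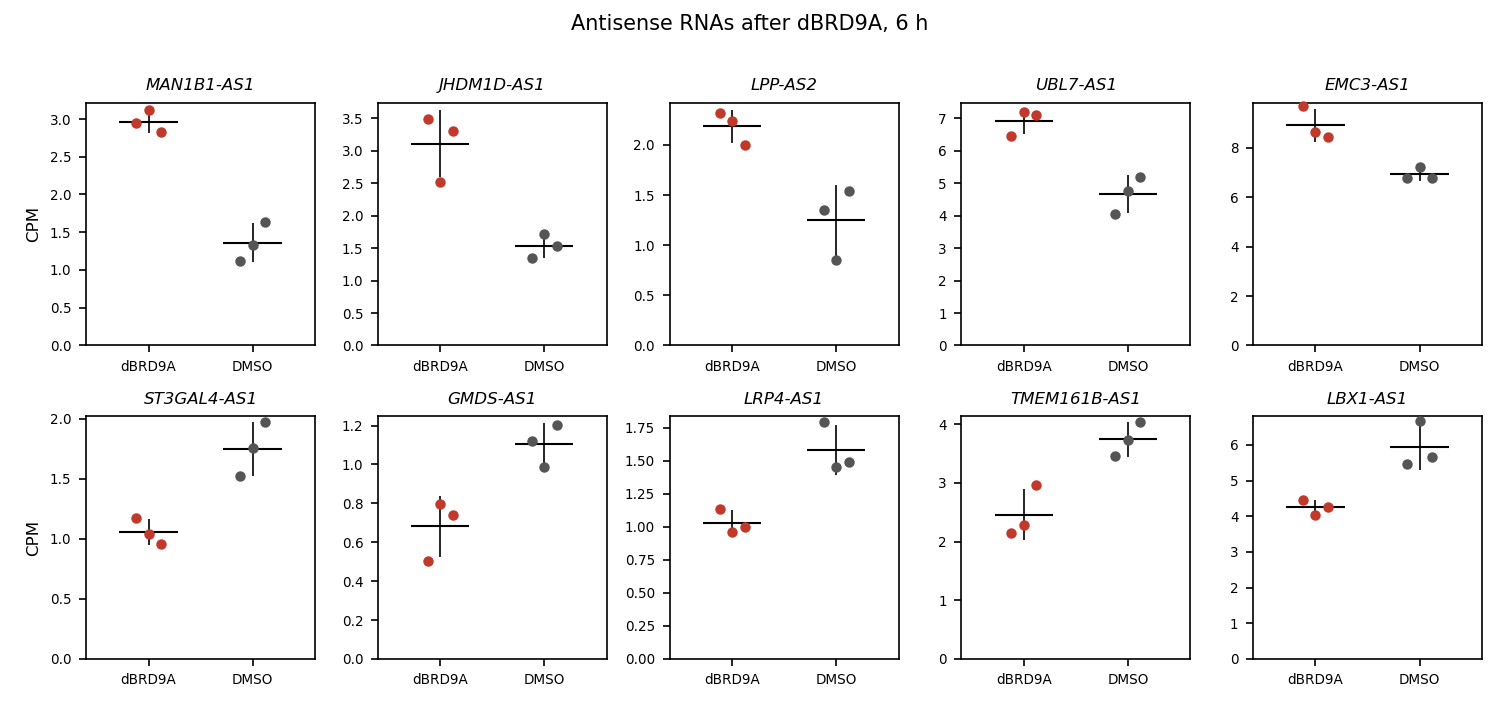
CPM of 10 antisense RNAs in dBRD9A cells (left, red) and DMSO cells (right, grey) at 6 hr, 1 point per library, with the group mean as a horizontal line and 1 SD as a vertical line (n = 3 each). In each panel the groups do not overlap, with MAN1B1-AS1 between 2.83 and 3.12 CPM for dBRD9A and between 1.12 and 1.64 CPM for DMSO.

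MAN1B1-AS1 had the largest rise. It lies on chromosome 9 at 139979398 to 139981269 (GRCh37, minus strand), head to head with MAN1B1, an alpha-mannosidase of the endoplasmic reticulum, and shares no exonic base with it. It had 2.95, 3.12 and 2.83 CPM in dBRD9A cells, against 1.12, 1.33 and 1.64 CPM in DMSO cells. The groups did not overlap, and the log2 fold change was 1.13 (SE 0.18, edgeR adjusted p = 6.89e-06). MAN1B1 itself had 38.4, 37.9 and 38.9 CPM with dBRD9A and 34.0, 38.4 and 36.5 CPM with DMSO, a change of 0.09 that missed the threshold (edgeR adjusted p = 0.202).

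JHDM1D-AS1, antisense to the histone demethylase gene now called KDM7A, had 3.49, 2.52 and 3.31 CPM with dBRD9A, against 1.35, 1.71 and 1.54 CPM with DMSO. Its log2 fold change was 1.02 (SE 0.18, edgeR adjusted p = 3.4e-05), and KDM7A also rose, by 0.49. LPP-AS2 starts 785 bases from LPP, which encodes a focal adhesion protein. It stood at 2.31, 2.24 and 2.00 CPM in dBRD9A cells and 1.35, 0.856 and 1.54 CPM in DMSO cells, a rise of 0.83 (edgeR adjusted p = 0.00171), while LPP fell by 0.16. UBL7-AS1, beside the gene of a ubiquitin-like protein, had 6.44, 7.19 and 7.09 CPM with dBRD9A, against 4.04, 4.75 and 5.19 CPM with DMSO. It rose by 0.58 (edgeR adjusted p = 0.000122), and UBL7 itself had -0.03 (edgeR adjusted p = 0.544). EMC3-AS1, beside the gene of a subunit of a membrane insertion complex, rose by 0.37, and its sense gene was not called.

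The falls were smaller in size. TMEM161B-AS1 had 2.15, 2.28 and 2.96 CPM with dBRD9A, against 3.46, 3.73 and 4.04 CPM with DMSO, and its groups did not overlap. It fell by 0.60 on the log2 scale (edgeR adjusted p = 0.00196). ST3GAL4-AS1 fell by 0.71, but DESeq2 gave it an adjusted p of 0.0588. MYCBP2-AS1 fell by 0.52, with 3.96, 4.20 and 5.09 CPM in dBRD9A cells and 6.87, 5.65 and 6.54 CPM in DMSO cells. MYCBP2, a ubiquitin ligase of neurons, fell by 0.39, and 38.2% of the antisense exonic bases lie in its exons. LBX1-AS1 fell by 0.48 and its sense gene, a homeobox factor of muscle precursors, by 0.21. NCAM1-AS1 fell by 0.47 beside a fall of 0.26 in NCAM1, a neural cell adhesion molecule and a marker of this tumour.

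The lists by role of the sense gene are short and incomplete, and their counts stand beside the 35.9% of all genes called. The list of developmental transcription factors gave 4 higher and 3 lower of 17 tested. It leaves out LBX1-AS1, given above, and LBX2-AS1, which was at -0.23 (edgeR adjusted p = 0.0337, DESeq2 0.118). TBX2-AS1 was among the lower, with 8.12, 8.55 and 7.40 CPM in dBRD9A cells and 9.79, 9.89 and 10.3 CPM in DMSO cells (log2 fold change -0.31, edgeR adjusted p = 0.00598). GATA2-AS1 was among the higher at 0.23, beside a rise of 0.77 in GATA2, a haematopoietic and neural factor. NR2F1-AS1 rose by 0.28. The list of metabolism and mitochondria, which took in whole SLC and TMEM families, had 1 antisense RNA higher and 5 lower of 14. TMEM161B-AS1 and TMEM9B-AS1 are 2 of the 5 and are there by family name alone, since their sense genes encode transmembrane proteins that are not metabolic enzymes. The others include COX10-AS1 at -0.46, next to the gene of a haem synthesis enzyme, and IDI2-AS1 at -0.35. Of 5 in the cell cycle list, SPAG5-AS1 fell by 0.34 and OIP5-AS1 by 0.20. CKMT2-AS1 is in that list although CKMT2 encodes a mitochondrial creatine kinase, and it was not called. HNRNPU-AS1 was the 1 called of 32 in the list of gene expression, RNA and protein turnover, at 0.25 (edgeR adjusted p = 1.05e-06). GNAS-AS1, at -0.30, was the 1 called of 14 in the signalling list, and no call was made among 9 of actin, matrix and adhesion genes, where PXN-AS1 had 0.17 (edgeR adjusted p = 0.0778). HOXB-AS1 was the 1 called of 5 in the HOX clusters, at -0.19.

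Calls named for dBRD9A were in part lost under other choices. Those of LGALS8-AS1 (0.70), EDRF1-AS1 (0.41), JMJD1C-AS1 (0.37), CACNA1G-AS1 (0.35), GMDS-AS1 (-0.68), RBMS3-AS3 (-0.61), LRP4-AS1 (-0.61), TMEM9B-AS1 (-0.49), NCK1-AS1 (-0.47), GATA2-AS1, NR2F1-AS1, GNAS-AS1 and HOXB-AS1 were lost with DESeq2, and each also on leaving out at least 1 library, in edgeR. Limma with voom ended the calls of EDRF1-AS1 and GNAS-AS1. Rows of a symbol summed, in edgeR, ended those of EDRF1-AS1, GMDS-AS1, GNAS-AS1, HOXB-AS1, JMJD1C-AS1, LRP4-AS1 and RBMS3-AS3. No filter on low counts ended those of EDRF1-AS1 and GMDS-AS1. Upper quartile factors ended those of GMDS-AS1 and GNAS-AS1, and total counts only that of GNAS-AS1, all in edgeR. Without DMSO replicate 1 the adjusted p was 0.0636 for CACNA1G-AS1, 0.0594 for GATA2-AS1, 0.0851 for GMDS-AS1, 0.0502 for JMJD1C-AS1, 0.0649 for LGALS8-AS1, 0.111 for LRP4-AS1 and 0.0542 for TMEM9B-AS1. Leaving out DMSO replicate 2 gave an adjusted p of 0.0517 for CACNA1G-AS1, 0.0614 for EDRF1-AS1, 0.184 for GNAS-AS1, 0.187 for HOXB-AS1, 0.101 for JMJD1C-AS1, 0.0838 for NCK1-AS1 and 0.0776 for RBMS3-AS3. With DMSO replicate 3 left out it was 0.0616 for CACNA1G-AS1, 0.209 for EDRF1-AS1, 0.122 for GMDS-AS1, 0.0632 for GNAS-AS1 and 0.0612 for NR2F1-AS1. Of the dBRD9A libraries, leaving out replicate 1 ended the calls of EDRF1-AS1 (adjusted p = 0.162), GMDS-AS1 (0.199), JMJD1C-AS1 (0.0895) and NR2F1-AS1 (0.113). Replicate 2 ended those of CACNA1G-AS1 (0.0628), EDRF1-AS1 (0.0517), GMDS-AS1 (0.0517), GNAS-AS1 (0.131) and LRP4-AS1 (0.0982), and replicate 3 those of CACNA1G-AS1 (0.0779), EDRF1-AS1 (0.0831), GATA2-AS1 (0.0507), GMDS-AS1 (0.0631), GNAS-AS1 (0.0921), HOXB-AS1 (0.0782), LRP4-AS1 (0.0649) and RBMS3-AS3 (0.128).

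More antisense RNAs were called with the fusion hairpins than with dBRD9A, and more passed 1.5-fold, as was also so over all genes. The hairpin comparison set 6 libraries against 3, where that of dBRD9A set 3 against 3. TBX2-AS1, C20orf166-AS1, LBX1-AS1 and HOXC-AS3 fell by 1.93, 1.55, 1.51 and 1.48 on the log2 scale, and SLC7A11-AS1 and SOCS2-AS1 rose by 1.42 and 1.41. Of 305 tested with both hairpins together, 51 were higher and 55 lower than with shRenilla, 34.8% in all. Over all 14269 genes tested, 44.6% were called, 22.5% higher and 22.1% lower. These shares too were not compared at equal reads per gene. Past 1.5-fold there were 28 higher and 20 lower of 305, beside 1780 (12.5%) higher and 842 (5.9%) lower of all 14269 genes. The median log2 fold change was 0.01, against -0.01 over all genes. Without shRenilla replicate 1 the count was 96, of which 84 were among the 106.

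**Figure D2:**
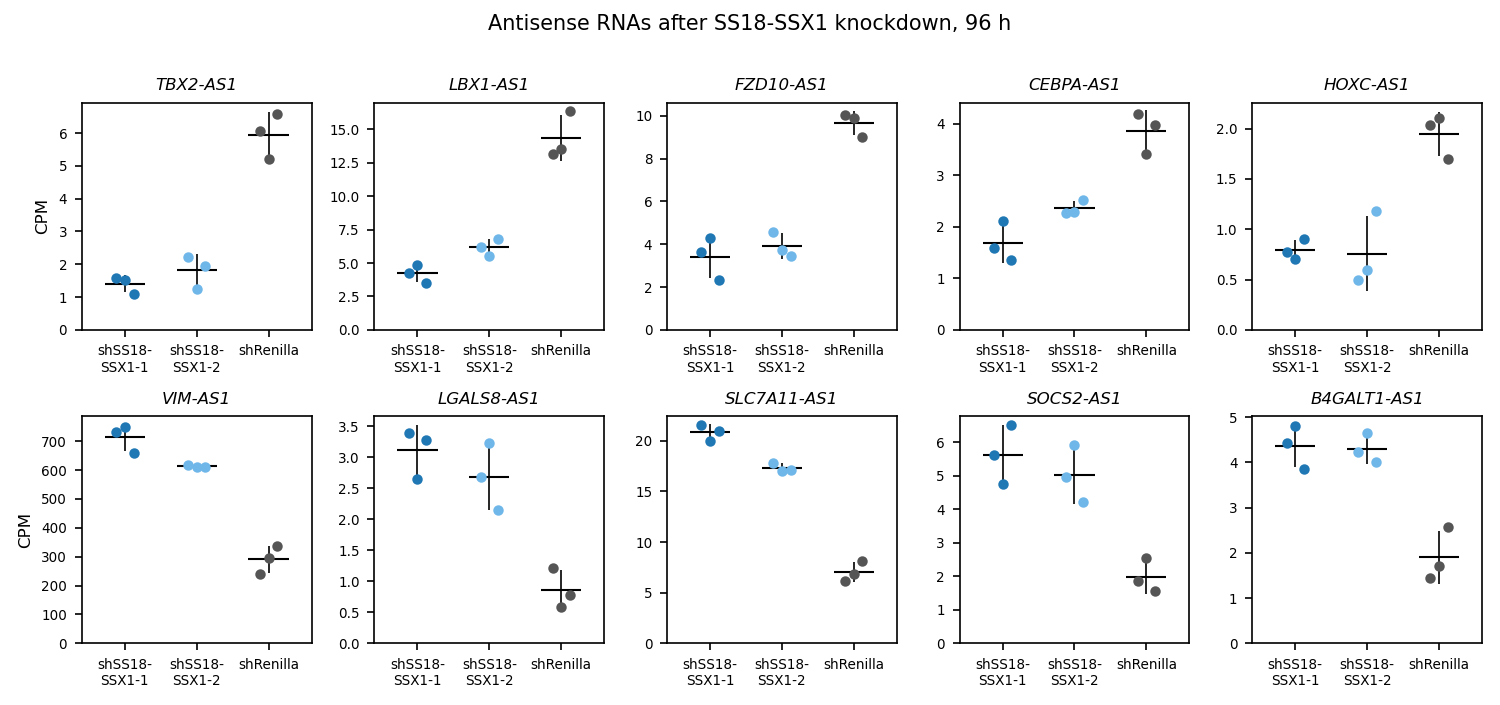
CPM of 10 antisense RNAs in shSS18-SSX1-1 (dark blue), shSS18-SSX1-2 (light blue) and shRenilla (grey) cells at 96 hr, 1 point per library, with the group mean as a horizontal line and 1 SD as a vertical line (n = 3 each). In TBX2-AS1 all 6 hairpin libraries lie between 1.11 and 2.23 CPM, below the 5.20 to 6.58 CPM of shRenilla.

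TBX2-AS1, antisense to a T-box repressor and on chromosome 17 at 59470816 to 59488916 (GRCh37), fell furthest. It had 1.58, 1.51 and 1.11 CPM in shSS18-SSX1-1 libraries and 2.23, 1.26 and 1.95 CPM in those of shSS18-SSX1-2, against 6.08, 5.20 and 6.58 CPM with shRenilla. The log2 fold change was -1.93 (SE 0.17, edgeR adjusted p = 4.86e-07), and all 6 hairpin libraries lay below all shRenilla libraries. TBX2 fell by 1.69, and the pair shares no exonic base. The HOXC cluster also gave falls. HOXC-AS3, on chromosome 12 at 54375293 to 54379303 (GRCh37), had 3.13, 4.11 and 3.12 CPM in shSS18-SSX1-1 libraries and 4.36, 3.23 and 4.62 CPM in those of shSS18-SSX1-2, against 9.40, 9.42 and 12.1 CPM with shRenilla. It fell by 1.48 (edgeR adjusted p = 1e-06) and HOXC-AS1 by 1.36. Of the 5 antisense RNAs of HOX clusters, HOXC-AS2 and HOXB-AS3 were also lower, by 0.55 and 0.52. The call of HOXC-AS2 was lost without shRenilla replicate 1 (edgeR adjusted p = 0.0713) or replicate 3 (0.0514). HOXB-AS1 had 15.5 to 19.5 CPM in the hairpin libraries, against 13.0, 29.3 and 27.1 CPM with shRenilla, and was not called at -0.38 (edgeR adjusted p = 0.116). Without shRenilla replicate 1 it was called at -0.66 (edgeR adjusted p = 7.8e-05).

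LBX1-AS1 had 4.26, 4.86 and 3.53 CPM in shSS18-SSX1-1 libraries and 6.22, 5.55 and 6.78 CPM in those of shSS18-SSX1-2, against 13.2, 13.5 and 16.4 CPM with shRenilla, a fall of 1.51 (edgeR adjusted p = 1.42e-07). LBX1 fell by 1.80. FZD10-AS1 lies head to head with FZD10, a Wnt receptor. It had 3.62, 4.27 and 2.34 CPM in shSS18-SSX1-1 libraries and 4.59, 3.74 and 3.44 CPM in those of shSS18-SSX1-2, against 10.0, 9.91 and 9.0 CPM with shRenilla. It fell by 1.42 and FZD10 by 1.26. CEBPA-AS1, one of the divergent transcripts shown above, had 1.58, 2.11 and 1.35 CPM and 2.27, 2.28 and 2.52 CPM with the 2 hairpins, against 4.19, 3.41 and 3.97 CPM with shRenilla. Its fall was 0.98 (edgeR adjusted p = 9.57e-05), beside 1.19 for CEBPA, a factor of myeloid and fat cell differentiation. SSTR5-AS1, opposite a somatostatin receptor, fell by 1.06, ZNF503-AS2 by 1.04 and SLCO4A1-AS1, opposite an anion transporter, by 1.63. C20orf166-AS1 had 5.13 to 11.1 CPM in the hairpin libraries, against 22.0 to 23.7 CPM with shRenilla, and fell by 1.55.

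Among the rises, SLC7A11-AS1 had 21.6, 19.9 and 21.0 CPM in shSS18-SSX1-1 libraries and 17.9, 17.1 and 17.1 CPM in those of shSS18-SSX1-2, against 6.15, 6.86 and 8.13 CPM with shRenilla. It rose by 1.42 (SE 0.10, edgeR adjusted p = 5.83e-08), and SLC7A11, the cystine importer that feeds glutathione synthesis, by 1.41. LGALS8-AS1 rose by 1.72, with 2.16 to 3.40 CPM in the hairpin libraries and 0.583 to 1.21 CPM in shRenilla. LGALS8, a galectin, rose by 0.80, and the antisense RNA shares 29.2% of its exonic bases with it. SOCS2-AS1 rose by 1.41 and its sense gene, a feedback inhibitor of cytokine signalling, by 0.65. SRP14-AS1 rose by 1.34, at 0.545 to 1.22 CPM against 0.242 to 0.448 CPM, while SRP14, a subunit of the signal recognition particle, had -0.09 (edgeR adjusted p = 0.445).

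Of the antisense RNAs called, VIM-AS1 took the most counts. It had 731, 749 and 660 CPM in shSS18-SSX1-1 libraries and 618, 612 and 609 CPM in those of shSS18-SSX1-2, against 241, 295 and 336 CPM with shRenilla. It rose by 1.17 (SE 0.09, edgeR adjusted p = 2.01e-07). VIM, the intermediate filament protein vimentin, had 2172 to 2756 CPM in the hairpin libraries and 1085 to 1248 CPM with shRenilla, and rose by 1.07. The 2 share 30.9% of the antisense exonic bases, so how many of the VIM-AS1 reads came from VIM RNA cannot be told. B4GALT1-AS1 rose by 1.19, KLF3-AS1 by 0.97, ARHGAP5-AS1 by 0.96 and ZFHX4-AS1 by 0.82.

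By role, with 44.6% of all genes called, the 15 tested antisense RNAs in the list of developmental transcription factors gave 3 higher and 6 lower. LBX1-AS1 and CEBPA-AS1, given above, LBX2-AS1 (-0.49) and TFAP2A-AS1 (-0.53) are not in it and were also lower. GATA2-AS1 (-0.91) and NR2F2-AS1 (-0.76) were among the lower, with their sense genes at -0.85 and -0.51. In the signalling list 4 were higher and 3 lower of 13, including MAGI2-AS3 at 0.63 and STARD4-AS1 at 0.44. STARD4, a sterol transport protein, had -0.04 (edgeR adjusted p = 0.679). The cell cycle list had 2 lower of 5, OIP5-AS1 at -0.57 and MCM3AP-AS1 at -0.31, and all 4 tested sense genes were lower. That list leaves out antisense RNAs of other cell cycle genes. Named after their values were seen, HMMR-AS1 (-0.88), PRC1-AS1 (-0.71), PCNA-AS1 (-0.56) and SGOL1-AS1 (-0.50) were lower, each with its sense gene. MCM8-AS1 (-0.94) and RAD21-AS1 (-0.40) were too, with overlapping groups, and without shRenilla replicate 3 both calls were lost (edgeR adjusted p = 0.0589 and 0.0861). RAD21-AS1 was also lost with DESeq2 (adjusted p = 0.104), with a replicate block (edgeR adjusted p = 0.0655) and without shRenilla replicate 1 or 2 or any of 5 hairpin libraries (0.0534 to 0.14). TMPO-AS1 in that list had -0.28 (edgeR adjusted p = 0.0785). The list of gene expression, RNA and protein turnover gave 3 higher and 5 lower of 33, with ZNF790-AS1 at 0.68 and HNRNPU-AS1 at -0.27. Of 14 in the list of metabolism and mitochondria SLC7A11-AS1 was higher and SLCO4A1-AS1 lower. The list of actin, matrix and adhesion had 1 higher and 1 lower of 8. These were LAMA5-AS1, opposite a laminin chain, at 0.70 with overlapping groups, and FBXL19-AS1 at -0.34, whose sense gene encodes an F-box protein and does not belong to those groups. Both calls were lost without shRenilla replicate 1 (edgeR adjusted p = 0.176 and 0.0624), as was that of BMPR1B-AS1 (1.02, and 0.72 without it, edgeR adjusted p = 0.13). BMPR1B-AS1 was also lost with DESeq2 (adjusted p = 0.0738). Leaving out shRenilla replicate 2 ended the calls of LAMA5-AS1 (edgeR adjusted p = 0.0956), FBXL19-AS1 (0.078) and HNRNPU-AS1 (-0.15, 0.112). LAMA5-AS1 was also lost without shSS18-SSX1-1 replicate 1 or 2 or shSS18-SSX1-2 replicate 1 or 3, and FBXL19-AS1 without shSS18-SSX1-1 replicate 2 or 3 or shSS18-SSX1-2 replicate 2, with edgeR adjusted p of 0.0515 to 0.0774. A replicate block also ended the call of LAMA5-AS1 (edgeR adjusted p = 0.0524), as did using no filter on low counts (0.055). LRRC75A-AS1, which took the most counts of all 338, had 962 to 1187 CPM with the hairpins and 1160, 814 and 719 CPM with shRenilla. Its change of 0.23 was not called (edgeR adjusted p = 0.162), but was 0.47 without shRenilla replicate 1 (edgeR adjusted p = 0.000284).

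**Figure D3:**
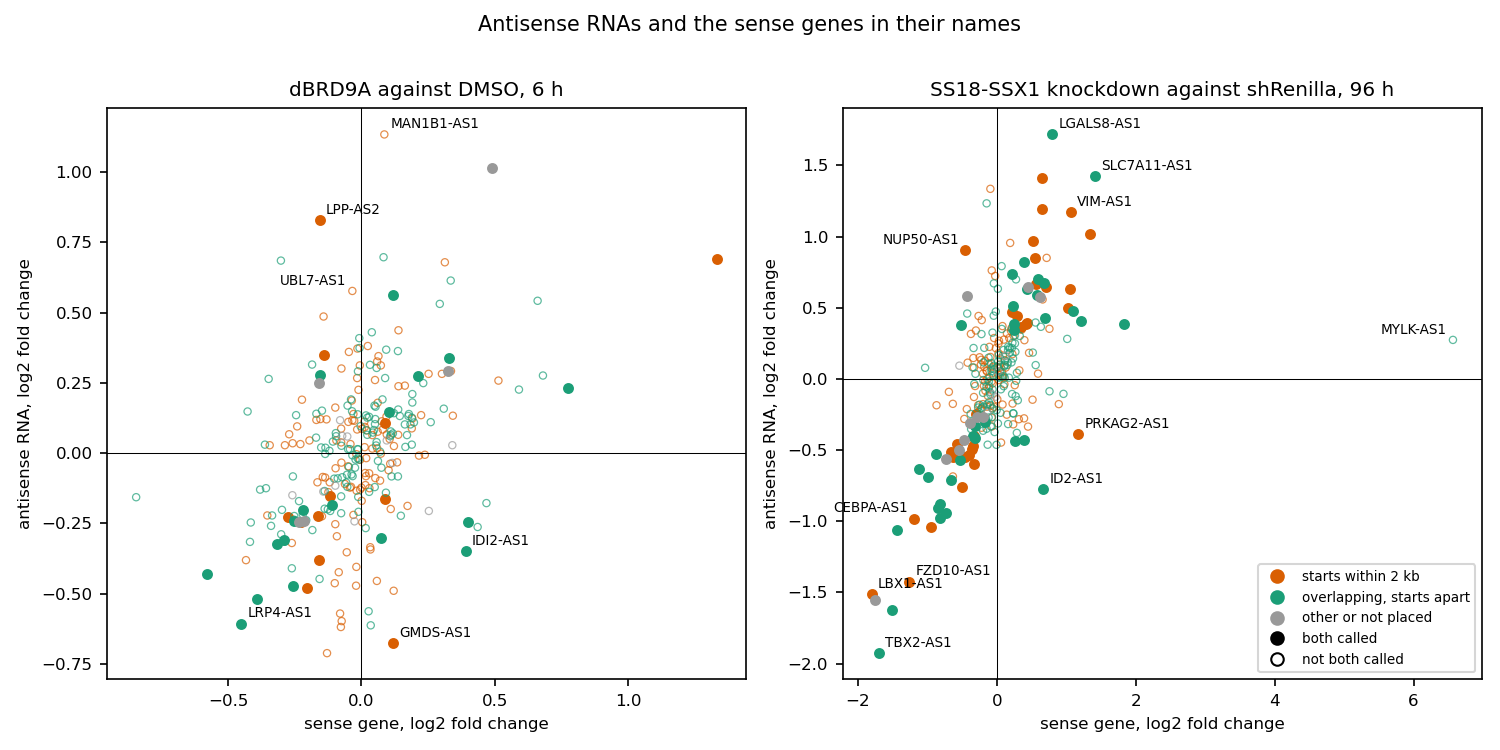
Log2 fold change of each sense gene (horizontal axis) and of its antisense RNA (vertical axis), 1 point per pair, for dBRD9A against DMSO (left, 296 pairs) and both hairpins against shRenilla (right, 291 pairs). Colours give the arrangement of the pair and filled points have both genes called, and MYLK-AS1 lies far right near 0 on the vertical axis.

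Of the 299 sense genes tested with dBRD9A, 133 (44.5%) were called, 57 higher and 76 lower, against 35.9% of all genes. With the hairpins 149 of 291 sense genes (51.2%) were called, 70 higher and 79 lower, against 44.6%. Equal reads per gene were not required here either. In 35 pairs both genes were called with dBRD9A, 26 of them in the same direction, and in 77 pairs with the hairpins, 70 in the same direction. Antisense calls without a call of the sense gene numbered 26 with dBRD9A and 23 with the hairpins. The sense gene was thus called for 57.4% of the 61 antisense RNAs called in these pairs with dBRD9A and for 77% of 100 with the hairpins, beside the 44.5% and 51.2% of all their sense genes. Across the 296 pairs with dBRD9A the fold changes of antisense and sense had Pearson r = 0.399, and across 291 pairs with the hairpins r = 0.54. The points of 1 comparison share their libraries and pairs with shared exons may share reads, so these are descriptions. Spearman's rho was 0.403 with dBRD9A and 0.569 with the hairpins. With dBRD9A, r was 0.162 over the 66 pairs with no shared exonic base and 0.634 over the 67 pairs with over 20% shared. With the hairpins, r was 0.764 over the 63 pairs with no shared exonic base, 0.373 over the 146 pairs with up to 20% shared and 0.737 over the 67 with over 20%. Pairs with starts within 2 kb had r = 0.335 (131 pairs, dBRD9A) and 0.651 (132 pairs, hairpins). TBX2, LBX1, FZD10 and CEBPA, which fell with their antisense RNAs under the hairpins, are in pairs with no shared exonic base.

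MYLK-AS1 stands apart from this pattern and is named after its values were seen. MYLK encodes the kinase that activates smooth muscle myosin. It had 69.8, 63.0 and 80.8 CPM in shSS18-SSX1-1 libraries and 80.5, 87.7 and 67.8 CPM in those of shSS18-SSX1-2, against 0.830, 0.628 and 0.871 CPM with shRenilla, a rise of 6.57 on the log2 scale. MYLK-AS1, which overlaps it and shares 11.5% of its own exonic bases with MYLK exons, had 1.13, 1.30 and 1.19 CPM and 1.68, 1.34 and 1.18 CPM with the 2 hairpins, against 1.21, 1.03 and 0.919 CPM with shRenilla. Those groups overlapped, and the log2 fold change was 0.27 (SE 0.19, edgeR adjusted p = 0.266). Without this pair, left out after the data were seen, r over the remaining hairpin pairs was 0.666, and 0.531 in place of 0.373 over those with up to 20% shared.

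**Figure D4:**
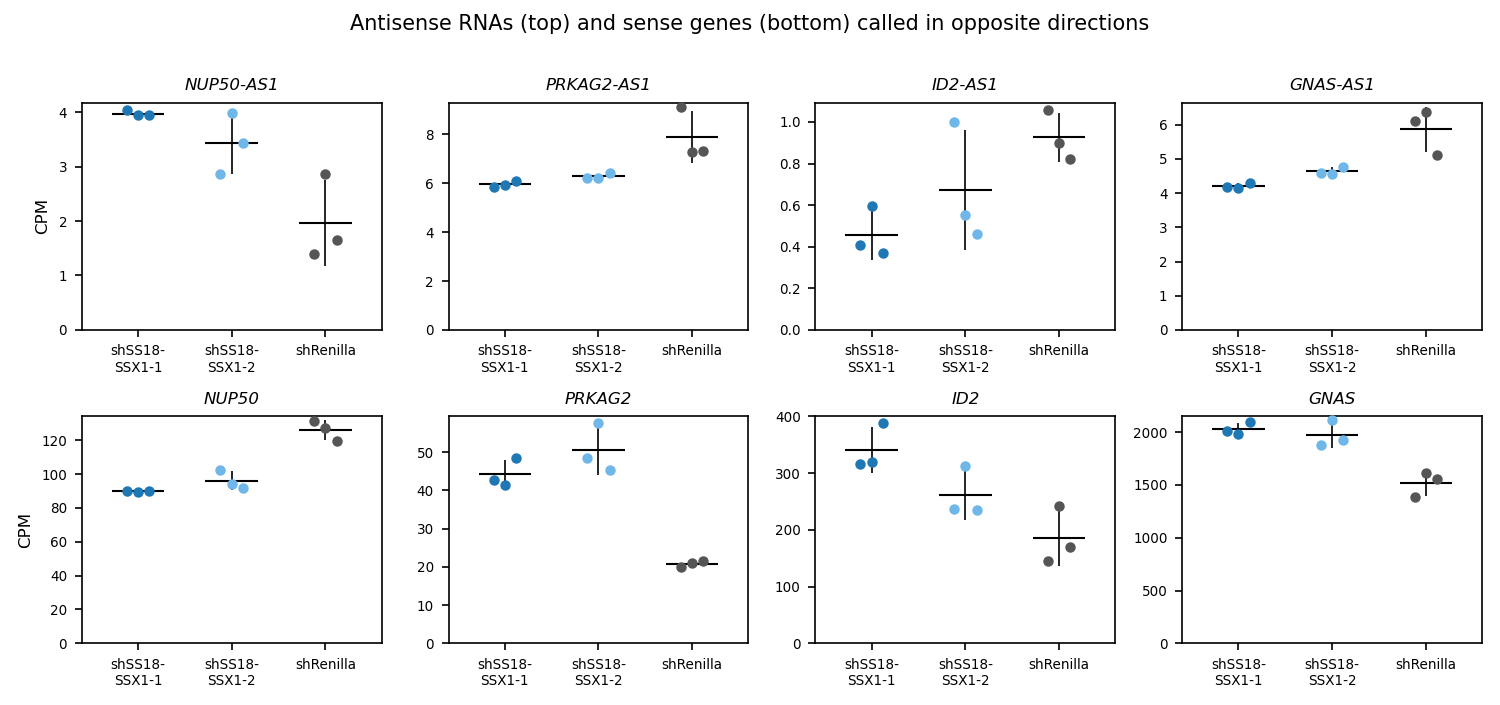
CPM of 4 antisense RNAs (top) and their sense genes (bottom) called in opposite directions at 96 hr, in shSS18-SSX1-1, shSS18-SSX1-2 and shRenilla cells, 1 point per library, with the group mean as a horizontal line and 1 SD as a vertical line (n = 3 each). The means of NUP50-AS1 are higher and those of NUP50 lower with the hairpins, and the means of PRKAG2-AS1 are lower and those of PRKAG2 higher.

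Pairs with both genes called in opposite directions numbered 7 with the hairpins and 9 with dBRD9A. NUP50-AS1, at the divergent start shown above, had 4.03, 3.94 and 3.94 CPM in shSS18-SSX1-1 libraries and 2.86, 3.98 and 3.44 CPM in those of shSS18-SSX1-2, against 1.40, 2.87 and 1.65 CPM with shRenilla. The groups touch, since shRenilla replicate 2 lies above the lowest hairpin library, and the rise was 0.90 (edgeR adjusted p = 0.00241). NUP50, a nuclear pore protein, had 90.3, 89.2 and 89.7 CPM and 103, 93.8 and 92.0 CPM with the 2 hairpins, against 131, 127 and 119 CPM with shRenilla, a fall of 0.46. PRKAG2-AS1, named here after its values were seen, had 5.84 to 6.42 CPM in the hairpin libraries, against 7.26 to 9.13 CPM with shRenilla, and fell by 0.39. Without shRenilla replicate 1 it was at -0.25 and not called (edgeR adjusted p = 0.0658). PRKAG2, a regulatory subunit of the AMP-activated kinase, rose by 1.18, with 41.5 to 57.6 CPM against 19.9 to 21.4 CPM. TNRC6C-AS1 rose by 0.58 and TNRC6C, a microRNA silencing factor, fell by 0.42. GNAS-AS1 fell by 0.43 and GNAS, the stimulatory G protein subunit, rose by 0.39, although 30.8% of the antisense exonic bases are shared. ID2-AS1 (-0.78, ID2 0.67) and KMT2E-AS1 (-0.43, KMT2E 0.27) lost their calls without shRenilla replicate 1 (edgeR adjusted p = 0.134 and 0.107), and ID2-AS1 also without shRenilla replicate 2, shSS18-SSX1-1 replicate 1 or 3 or shSS18-SSX1-2 replicate 2 or 3 (0.056 to 0.0753). Both were lost with DESeq2 too (adjusted p = 0.0807 for ID2-AS1 and 0.0593 for KMT2E-AS1). Rows of a symbol summed also ended the call of ID2-AS1 (edgeR adjusted p = 0.0637).

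With dBRD9A, IDI2-AS1 had 10.1, 9.87 and 9.22 CPM, against 11.2, 12.7 and 13.6 CPM with DMSO (-0.35, edgeR adjusted p = 0.00136). IDI2, an isopentenyl diphosphate isomerase of the isoprenoid pathway, had 9.68, 10.8 and 10.4 CPM, against 7.81, 8.09 and 7.74 CPM, a rise of 0.39. HNRNPU-AS1 had 160, 161 and 166 CPM in dBRD9A cells and 142, 132 and 138 CPM in DMSO cells, while HNRNPU, an abundant nuclear RNA-binding protein, fell by 0.16. LPP-AS2 and LPP, given above, are another such pair. SLC7A11-AS1 had 6.86, 6.79 and 6.88 CPM with dBRD9A and 7.46, 8.73 and 8.27 CPM with DMSO, a fall of 0.25 (edgeR adjusted p = 0.0409) beside a rise of 0.40 in SLC7A11. That antisense call was lost with DESeq2 (adjusted p = 0.148), and in edgeR without DMSO replicate 2 or 3 or any of the 3 dBRD9A libraries (0.0711 to 0.15). GMDS-AS1 fell by 0.68 where GMDS, an enzyme of GDP-fucose synthesis, rose by 0.12, and that antisense call was among those lost above.

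Read apart, shSS18-SSX1-1 gave 49 higher and 47 lower of 305 antisense RNAs, where 41.5% of all genes were called (22.0% higher, 19.5% lower), and shSS18-SSX1-2 gave 33 higher and 42 lower, where 34.2% were (18.3% higher, 15.9% lower). Without shSS18-SSX1-2 replicate 2 the second count was 45. TBX2-AS1 fell by 2.10 with shSS18-SSX1-1 and 1.76 with shSS18-SSX1-2, and SLC7A11-AS1 rose by 1.57 and 1.28. Between the hairpins, 0.147% of all genes were called and 0 of 305 antisense RNAs by edgeR or by limma with voom, with 24 under an unadjusted p of 0.05 in edgeR. The share over all genes is 21 genes, a count that ran between 5 without shSS18-SSX1-1 replicate 3 and 112 without shRenilla replicate 1, and was 162 with DESeq2 and 123 with no filter on low counts. DESeq2 called 1, C20orf166-AS1, as did edgeR with no filter on low counts. It had 10.5, 7.76 and 11.1 CPM in those of shSS18-SSX1-2, against 6.89, 7.24 and 5.13 CPM in shSS18-SSX1-1 libraries. Its difference was 0.59 (SE 0.15, edgeR adjusted p = 0.182).

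In a fit of all 15 libraries, the dBRD9A effect was compared with the hairpin effect. Of 292 antisense RNAs tested, the difference was called for 83, with 39 higher and 44 lower for dBRD9A, where 36.6% of all genes were called (17.5% higher, 19.0% lower). The 2 experiments differ in both agent and time, which cannot be told apart. The 5 differences of smallest adjusted p were those of SLC7A11-AS1 (-1.69), C20orf166-AS1 (1.59), VIM-AS1 (-1.11), HOXC-AS3 (1.46) and TBX2-AS1 (1.60). HOXC-AS3 had 10.8, 10.5 and 11.4 CPM with dBRD9A and 10.2, 11.3 and 11.5 CPM with DMSO, overlapping groups with a log2 fold change of -0.005 (SE 0.08) beside its fall of 1.48 under the hairpins. VIM-AS1 had 406, 413 and 391 CPM with dBRD9A and 352, 384 and 412 CPM with DMSO, also overlapping. In both experiments 32 of 292 antisense RNAs (11%) were called, 20 in the same direction and 12 in opposite directions. Of all genes 17.2% were (8.95% in the same direction, 8.22% in opposite directions). For all 12 the difference of effects was also called, which adds little, since effects of opposite sign add up in their difference. Named after their values were seen, UBL7-AS1 (0.58 with dBRD9A, -0.60 with the hairpins), EMC3-AS1 (0.37, -0.46) and TPT1-AS1 (-0.46, 0.36) are among the 12. JHDM1D-AS1 (1.02, 0.65) and LBX1-AS1 (-0.48, -1.51) are among the 20.

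**Figure D5:**
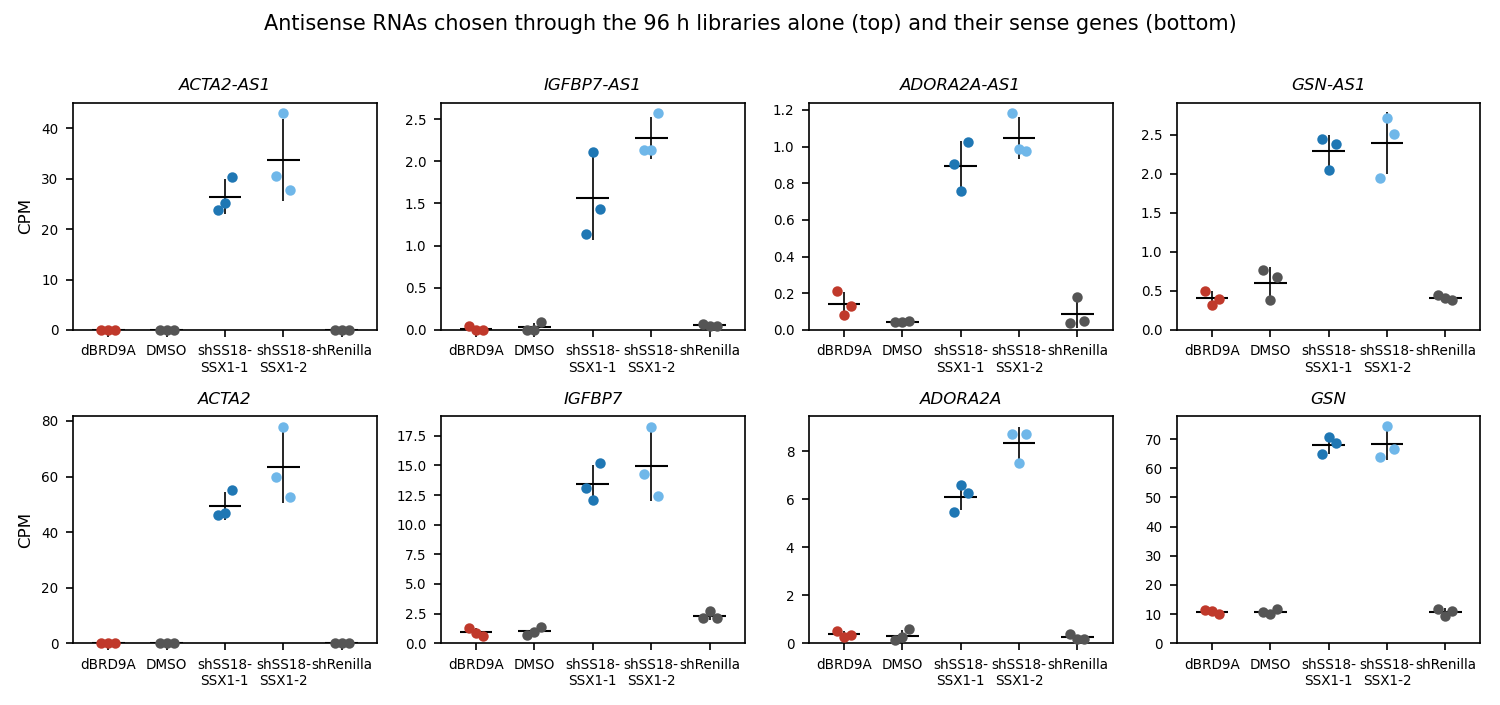
CPM of 4 antisense RNAs that reached the count minimum through the 96 hr libraries alone (top) and of their sense genes (bottom) in all 5 groups, 1 point per library, with the group mean as a horizontal line and 1 SD as a vertical line (n = 3 each). ACTA2-AS1 lies between 23.8 and 43.0 CPM in the 6 hairpin libraries and at 0 in shRenilla.

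Antisense RNAs that reached 20 counts through the hairpin experiment alone numbered 28, and 16 did so through the dBRD9A experiment alone. Another 2 needed libraries of both. For the 28, the hairpin contrast had a part in choosing them, so their values are given with no test. ACTA2-AS1, on chromosome 10 at 90692147 to 90700577 (GRCh37), had 23.8, 25.2 and 30.3 CPM in shSS18-SSX1-1 libraries and 30.5, 43.0 and 27.7 CPM in shSS18-SSX1-2 libraries. Those are 1730 and 2302 counts, against 0 counts in the 3 shRenilla libraries, at least 708-fold higher with a floor of 3 counts over the control group. ACTA2, smooth muscle actin, stood at 46.2 to 77.9 CPM with the hairpins and 0 to 0.0484 CPM with shRenilla, and 51.5% of the ACTA2-AS1 exonic bases lie in ACTA2 exons, so the counts of the pair cannot be separated. The list of smooth muscle and fibroblast markers given above includes ACTA2 itself, so its higher sum with the hairpins is not a separate observation. LUM and DCN of that list stayed low.

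IGFBP7-AS1 had 99 and 151 counts in the 2 hairpin groups, against 4 with shRenilla, in CPM a 32.9-fold difference. ADORA2A-AS1, opposite an adenosine receptor, was 11.3-fold higher, GSN-AS1, opposite the actin-severing protein gelsolin, 5.65-fold and TGFB2-AS1, opposite a growth factor of the transforming growth factor beta family, 3.88-fold. LOXL1-AS1, opposite an enzyme that crosslinks elastin, had 7.35 to 9.0 CPM with the hairpins, against 2.24 to 3.73 CPM with shRenilla. FOXD3-AS1 went the other way, at 0.725 of its shRenilla level with groups that did not overlap. Most of the antisense RNAs chosen through the hairpin experiment alone had overlapping groups. Among these, DDX11-AS1 was at 0.82 of its shRenilla level and TAPT1-AS1 at 1.16. Of those chosen through the other experiment, C1RL-AS1 had 93 to 104 counts in dBRD9A libraries, 75 to 111 in DMSO libraries and 9 to 21 in the 9 libraries of the 96 hr experiment. RAP2C-AS1 was 2.23-fold higher with dBRD9A than with DMSO and BMPR1B-AS1 1.74-fold, again with no test.

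The antisense RNAs that took the most counts were, by mean CPM over the 15 libraries and not per length, LRRC75A-AS1 (771), VIM-AS1 (480.5), FGD5-AS1 (216), HNRNPU-AS1 (133) and CERS6-AS1 (74.0). LRRC75A-AS1, a host of small nucleolar RNAs now named SNHG29, had 440, 430 and 427 CPM in dBRD9A cells and 407, 402 and 399 CPM in DMSO cells, a difference of 0.11 (edgeR adjusted p = 0.0021). FGD5-AS1 fell by 0.12 with dBRD9A (edgeR adjusted p = 0.0029). CERS6-AS1 had 79.0, 84.3 and 81.7 CPM with dBRD9A, against 102, 94.8 and 93.6 CPM with DMSO, a fall of 0.24 beside 0.25 for CERS6, a ceramide synthase, and 69.6% of its exonic bases are shared.

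At the threshold of the rule, BMPR1B-AS1, INTS6-AS1, PLS3-AS1, SDCBP2-AS1 and TMLHE-AS1 had exactly 3 libraries at 20 counts. GAS6-AS2, GRTP1-AS1, MNX1-AS1, PRKAR2A-AS1 and RHPN1-AS1 had 2 and were left out. INTS6-AS1 had 10 to 26 counts over the 15 libraries, and GAS6-AS2 had 4 to 22. A total of 256 antisense RNAs had 20 counts in all 15 libraries, and 180 of the 851 symbols had no count in any.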

How the data were processed

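RNA-seq of 15 HSSYII libraries was analysed. The authors deposited raw counts per transcript row, made from 75 bp single-end reads with STAR and featureCounts on hg19 (submitters' processing notes). For versions and the strand setting, the sources used here give nothing, and 0 rows name the spike-ins that the methods mention. In the table of dBRD9A replicate 2, the end of the symbol stood before the count in the count column of 4535 rows. Each joined symbol matched the other tables, and the count was read as it stood. For each symbol the row with the highest total was kept.

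The test was edgeR 4.0.16 under R 4.3.3 (robust quasi-likelihood, TMM, filterByExpr at a minimum count of 10, within each experiment), with adjusted p over all genes. SE is the log2 fold change over the square root of F. On simulated counts, 84% of genes changed 1.5-fold were recovered for dBRD9A (13652 genes) and 91% for the hairpins (14269 genes). For the difference of effects it was 68% (14560 genes). The changed genes were drawn over all genes but the lowest in CPM, so recovery of the antisense RNAs themselves was not measured. Positions come from GENCODE models on GRCh37 and start windows from RefSeq on GRCh38.p14. Alternatives were other scalings, DESeq2 1.42.0, limma 3.58.1 with voom, no filter, summed rows, each library left out in turn and a replicate block.

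Members and lists were chosen with earlier results of these data known. Named were, in each experiment, up to 10 rises and 10 falls with adjusted p under 0.05 and groups that did not overlap, the 5 highest in CPM, up to 3 per role list, up to 5 pairs called in opposite directions, up to 5 that differed between hairpins or effects, those that entered through 1 experiment, and those at the threshold. Others are marked as named after their values were seen. Of those the rule named, 1 is not reported here.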

Additional observations from a re-analysis of the deposited data

Results flagged for a closer look

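For 5 antisense RNAs the effect of dBRD9A over DMSO differed from that of the fusion hairpins over shRenilla in the edgeR fit of all 15 libraries, with the smallest adjusted p of 292 tested. SLC7A11-AS1 differed by -1.69 (SE 0.13, edgeR adjusted p = 2.12e-08), and its group means were 6.84 CPM with dBRD9A and 8.15 CPM with DMSO, and 20.8 and 17.3 CPM with the 2 hairpins and 7.05 CPM with shRenilla. C20orf166-AS1 differed by 1.59 (edgeR adjusted p = 1.75e-07), TBX2-AS1 by 1.60 (edgeR adjusted p = 3.28e-06) and HOXC-AS3 by 1.46 (edgeR adjusted p = 2.68e-06), each falling less or not called with dBRD9A. VIM-AS1 differed by -1.11 (edgeR adjusted p = 8.78e-07). No group had more than 3 libraries, so single libraries were not tested as outliers.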

How the results depend on the processing

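Counts of antisense RNAs and sense genes called kept within 1.5 times of their value under every alternative run but 4. With DESeq2, 32 antisense RNAs were called for dBRD9A in place of 63. Between the hairpins DESeq2 and edgeR without a filter each called 1 in place of 0. Over all genes, the 21 calls between the hairpins moved by more under 14 alternatives, with 32 under 2 other scalings, 162 with DESeq2, 123 with no filter, 12 with rows summed, 13 with a replicate block and 5 to 112 on leaving out a library. Without shSS18-SSX1-2 replicate 2, 45 were called for that hairpin in place of 75. Leaving out each library in turn gave 48 to 57 calls for dBRD9A, 91 to 106 for both hairpins, 72 to 104 for shSS18-SSX1-1, 45 to 81 for shSS18-SSX1-2, 0 between the hairpins and 68 to 86 for the difference of effects. Sense genes called then ranged over 100 to 134 for dBRD9A and 129 to 151 for the hairpins.

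Among the named RNAs, directions turned under an alternative for 4 RNAs, none of them called with all libraries in the comparison concerned. CKMT2-AS1 with dBRD9A had -0.039 without DMSO replicate 2, in a range of -0.039 to 0.281 over the libraries left out. HOXC-AS1 with dBRD9A had 0.044 without DMSO replicate 1 and 0.168 without dBRD9A replicate 2 (range -0.34 to 0.168), and HOXC-AS2 had 0.22 without DMSO replicate 3 and 0.129 without dBRD9A replicate 3 (range -0.174 to 0.22). FGD5-AS1 with the hairpins had 0.009 with upper quartile factors. It had 0.098 when shRenilla replicate 2 was left out, 0.03 for shRenilla replicate 3 and 0.002 for shSS18-SSX1-1 replicate 2, against -0.02 in all libraries, and was called at -0.14 with shRenilla replicate 1 left out (edgeR adjusted p = 0.0453). The causes were not tested.

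The labels do not say whether replicate numbers pair the libraries. Deviations of libraries with the same number correlated at -0.092 to 0.002 in the 6 hr experiment and -0.542 to 0.445 in the 96 hr experiment. Libraries with different numbers correlated at -0.094 to 0.129 and at -0.452 to 0.629. With 3 libraries per group these values cannot settle whether the libraries were paired. With a replicate block the counts were 64 for dBRD9A, 97 for both hairpins, 86 and 62 for the single hairpins, 0 between them, 72 for the difference of effects, and 129 sense genes in either experiment. Antisense RNAs near 1 CPM have few reads, which limits their precision.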
